A study of Xenopus laevis with 8 samples.

Results

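The most abundant polyadenylated transcripts of the *Xenopus laevis* embryonic gut were chosen by their measured level, as the genes with a mean of 1000 CPM or more over all 8 libraries of the series (CPM is the count scaled to the size of its library). By this rule 84 of the 51061 genes in the deposited table were members. The 8 libraries came from mid- and hindgut, with the foregut removed, although the labels call the tissue whole intestine. Of these, 4 were from embryos exposed to 35 mg/l atrazine (ATR), a triazine herbicide, for 24 h, and 4 were from control embryos exposed to the vehicle DMSO for 24 h. Exposure began at Nieuwkoop and Faber (NF) stage 39 and the guts were collected at about NF 40. Each library was made from 10 pooled intestines, so differences between single embryos are averaged within it, and what a replicate number stands for is not stated. Total counts ranged from 79887778 to 104915882 in ATR libraries and from 95497200 to 106791269 in DMSO controls.

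In most animal tissues a small set of genes gives a large part of the messenger RNA. Such genes often encode ribosomal proteins, translation elongation factors, subunits of the mitochondrial respiratory chain, cytoskeletal proteins and the main products of the differentiated cells. The endoderm of a frog embryo of this age is still rich in yolk, and its cells are beginning to form an epithelium. The deposited table names its genes only by a running identifier, and none of the 51061 identifiers was found in the RefSeq gene table, which pairs identifiers with symbols. Which of the 84 transcripts belong to any of these classes is therefore not given here, and the labelled tissue could not be checked against marker genes. Transcripts are placed by their rank in mean CPM, with 1 the highest, and identifiers are printed for 4 of them. CPM is not divided by transcript length, so a rank orders shares of counts and not numbers of molecules.

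The 84 transcripts made up 0.274% of the 30702 genes tested, yet together they held 30.4% of all counts. The highest single transcript held 1.93% of the counts, the highest 5 held 7.35% and the highest 20 held 17.2%. Mean CPM ranged from 1008 to 19452 with a median of 2138, a span of 19.3-fold between the first and the last rank. Within the set, 7 transcripts had a mean of 10000 CPM or more, 11 lay from 5000 to 10000, 27 from 2000 to 5000 and 39 from 1000 to 2000. These values are what the rule selected and carry no test.

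**Figure D1:**
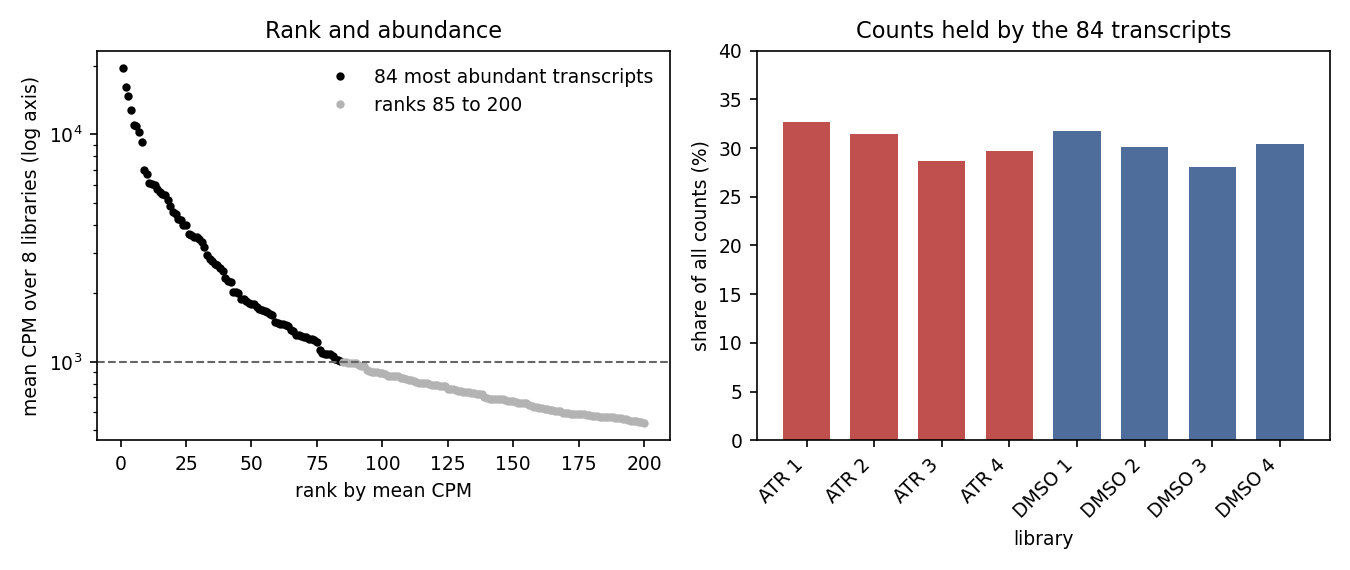
Left, mean CPM (log axis) against rank for the 84 transcripts (black) and the next ranks (grey), with the threshold of 1000 CPM dashed. Right, the share of all counts held by the 84 transcripts in each library, from 28.7% to 32.7% in the ATR libraries (red) and from 28.0% to 31.8% in the DMSO libraries (blue).

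The upper ranks kept nearly the same order in every pool of intestines. The transcript of rank 1 had 23881, 23184, 17296 and 16731 CPM in ATR replicates 1 to 4, and 23696, 18191, 15927 and 16710 CPM in DMSO replicates 1 to 4. It was the highest of all genes in every library except DMSO replicate 4, where the transcript of rank 3 was higher. The transcript of rank 2 had 19936, 18690, 12632 and 15272 CPM in the ATR libraries, against 17689, 16012, 12184 and 16296 CPM in the DMSO libraries. That of rank 3 had 16680, 14024, 12470 and 16243 CPM after ATR and 15669, 13385, 12118 and 16977 CPM in DMSO. For these 3 transcripts the ranges of the groups overlapped, and in both groups replicate 3 was low for ranks 2 and 3. The transcript of rank 4 had 16264, 13180, 11770 and 11505 CPM after ATR, against 13134, 12364, 11717 and 12372 CPM in DMSO, and was the fourth highest gene of every library. The transcript of rank 5 had 15053, 12285, 8025 and 9903 CPM after ATR and 12270, 11009, 7914 and 11305 CPM in DMSO, with the lowest value of each group in replicate 3. Its place varied between 5 and 7 over the libraries.

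Further down, most members, but not all, kept a place among the highest genes of every library. Of the 84 transcripts, 70 were among the 84 highest of every library and 71 had 1000 CPM or more in every library. The lowest value of any member in any library was 606 CPM. The number of genes at 1000 CPM or more ranged from 76 in DMSO replicate 3 to 108 in ATR replicate 1. The transcript of rank 84 fell to place 178 in ATR replicate 2. The last 3 members, of ranks 82 to 84, had means of 1025, 1021 and 1008 CPM, and the first 3 genes outside the threshold had means of 999.7, 994.4 and 993.5 CPM. At rank 82, the transcript had 1541, 974, 1052 and 927 CPM in ATR replicates 1 to 4, and 1150, 775, 777 and 1004 CPM in DMSO replicates 1 to 4. It lay on both sides of 1000 CPM in each group, as did its neighbours outside. That of rank 85 had 1276, 1012, 894 and 768 CPM after ATR and 1199, 1011, 876 and 963 CPM in DMSO. That of rank 86 had 1402, 1252, 821 and 803 CPM after ATR, against 1140, 945, 724 and 867 CPM in DMSO. That of rank 87 had 1178, 1017, 899 and 1072 CPM after ATR, against 955, 902, 813 and 1112 CPM in DMSO. The rule thus divides a continuous range, and no gap separates the set from the genes below it. With the mean taken over the ATR libraries alone 86 genes passed 1000 CPM, and over the DMSO libraries alone 85.

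The 84 transcripts took up a similar part of the RNA with and without ATR. Their share of all counts was 32.7%, 31.5%, 28.7% and 29.7% in ATR replicates 1 to 4, and 31.8%, 30.1%, 28.0% and 30.4% in DMSO replicates 1 to 4. The groups overlapped over most of their range, and in both groups replicate 1 was the highest and replicate 3 the lowest. The mean share was 30.7% ± 1.78 (SD, n = 4) after ATR and 30.1% ± 1.55 (SD, n = 4) in DMSO controls, a difference of 0.580 percentage points that is smaller than either SD. These SDs include the differences between replicate numbers. Compared by number, the share was higher after ATR in replicates 1 to 3 and lower in replicate 4. The difference turned to -0.107 points without DMSO replicate 3 and to -0.0982 points without ATR replicate 1, and was 1.23 points without ATR replicate 3. Leaving out 1 library breaks a pair. With both libraries of replicate 1, 2, 3 or 4 left out, the difference was 0.463, 0.311, 0.539 and 1.01 points. The 95% binomial interval of a share (Wilson) was at most 0.0201 percentage points wide. It takes counts as independent and covers counting error only. In bulk RNA, fewer cells of a type and less RNA per cell cannot be told apart.

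Sampling of reads was not what limited the precision for these transcripts. Their counts ranged from 61773 to 2301147 per library. If counts are independent, counting alone gives a coefficient of variation of at most 0.402%. Whether a count is a read pair or a single mate is not stated, and counts of both mates would make this value larger. The observed coefficient of variation over the 8 libraries had a median of 13.3% and ranged from 3.56% to 33.1%. The SD of log2 CPM within groups had a median of 0.19 over the 84 transcripts. It was 0.16 over the 1358 genes with a mean of 100 to 1000 CPM and 0.18 over the 10131 genes of 10 to 100 CPM. With library totals in place of TMM (trimmed mean of M values) factors these medians were 0.14, 0.13 and 0.19, so that the order of the 84 and the genes of 10 to 100 CPM depends on the scaling. The medians were not tested against each other.

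Most of this variation followed the replicate number and was shared by the ATR and the DMSO library of that number. For the median transcript of the 84, 74.8% of the variance of log2 CPM lay between replicate numbers and 6.76% between ATR and DMSO. Over all genes tested these medians were 57.3% and 8.79%. Replicate number has more levels than treatment, so on average it takes the larger share even in noise alone. The deviations of the 84 transcripts from their group means correlated between same-numbered ATR and DMSO libraries with r of 0.54, 0.75, 0.90 and 0.65 for replicates 1 to 4. These are correlations across transcripts, which are not independent replicates. The highest r between libraries of different numbers was 0.28. The same holds over all 30702 genes, where the same-numbered libraries correlated at 0.30, 0.21, 0.41 and 0.28. For this reason each test is given without and with a block for replicate number.

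The numbers differed in 1 main way. Averaged over the ATR and the DMSO library, replicate 1 was the highest number for 63 of the 84 transcripts and replicate 3 the lowest for 66. By single library, ATR replicate 1 was the highest for 45 transcripts and DMSO replicate 3 the lowest for 45. A principal component analysis of the 84 transcripts placed 69.8% of their variance on the first component, on which 80 of them had weights of the same sign. The scores were 2.45, 1.41, -1.96 and -0.43 in ATR replicates 1 to 4, and 1.39, -0.45, -2.72 and 0.31 in DMSO replicates 1 to 4. Replicate 3 thus lay at 1 end in both groups, and the score variance was to 86.9% between numbers and to 4.99% between treatments. Here too the larger number of levels favours replicate number. On the fourth component, with 4.22% of the variance, 62.4% of the score variance separated treatments.

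**Figure D2:**
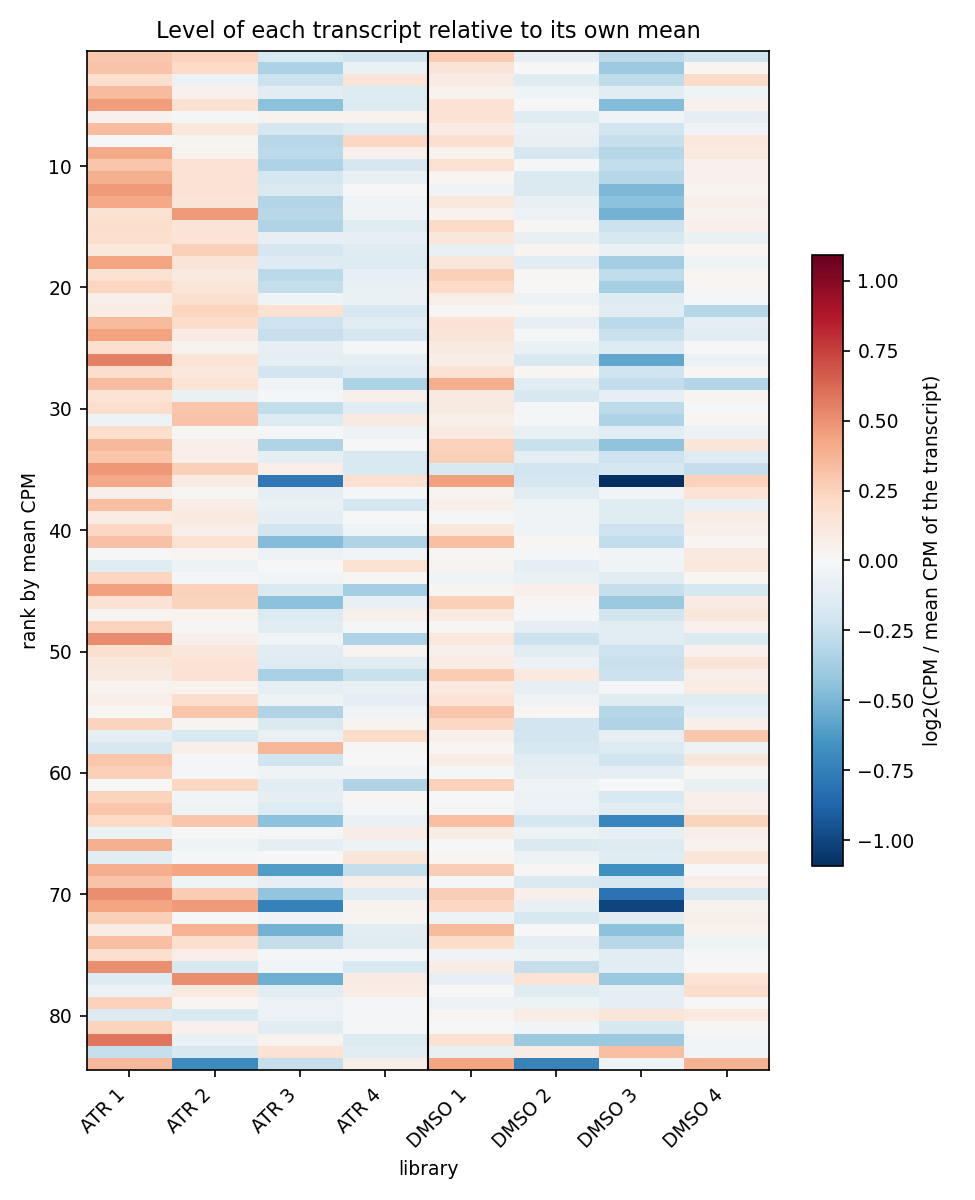
Each line is 1 of the 84 transcripts, ordered by rank, and each column a library (ATR left of the black line, DMSO right of it). Colour gives log2 of CPM over the mean CPM of that transcript. Most lines are red in ATR replicate 1 and blue in DMSO replicate 3 and ATR replicate 3.

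The scaling factors moved with this pattern. The TMM factor, by which the library total is multiplied before CPM is taken, was lowest in ATR replicate 1 (0.90) and highest in DMSO replicate 3 (1.10). A low factor raises every CPM of its library. With library totals only, ATR replicate 1 was the highest library for 35 transcripts and DMSO replicate 3 the lowest for 19. Replicate 1 was then the highest number for 42 and replicate 3 the lowest for 40. The share of variance between numbers, with a median of 74.4%, was then nearly the same as with TMM. The raw shares of counts given above use no such factor, and they too were highest in replicate 1 and lowest in replicate 3 of both groups. With DESeq2 size factors ATR replicate 1 was the highest library for 45 transcripts and DMSO replicate 3 the lowest for 48. With TMM factors taken over the other genes these counts were 45 and 45. What part scaling has in the pattern was not tested.

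A few transcripts were much lower in replicate 3 than in the other numbers. That of rank 36 had the largest SD within groups (0.61 in log2 CPM). It had 3581, 2866, 1561 and 3008 CPM in ATR replicates 1 to 4, and 3657, 2360, 1260 and 3208 CPM in DMSO replicates 1 to 4. Both replicate 3 libraries were the lowest of their group, at 0.453 of the mean of the other numbers. The transcript of rank 71 had 1737, 1777, 769 and 1318 CPM after ATR and 1500, 1215, 642 and 1319 CPM in DMSO. It too was lowest in replicate 3 of both groups, at 0.477 of the other numbers. Of the 84 transcripts, 4 lay under 0.6 on this ratio (ranks 36, 68, 70 and 71), 14 lay under 0.75 and 4 lay above 1, with a median of 0.858. These limits were chosen after the values had been seen.

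A different order was seen at rank 84, the last of the set. This transcript had 1288, 622, 848 and 1056 CPM in ATR replicates 1 to 4, and 1362, 606, 974 and 1309 CPM in DMSO replicates 1 to 4. Here replicate 2, not replicate 3, was the lowest of both groups, and 95.3% of its variance lay between numbers. The most even transcript was that of rank 42, with 2235, 2279, 2139 and 2197 CPM after ATR, against 2259, 2217, 2196 and 2407 CPM in DMSO. Its SD within groups was 0.050 in log2 CPM, and its groups overlapped. The next most even were those of ranks 80 and 75, at 0.060 and 0.076.

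Whether ATR altered these transcripts was tested with edgeR over all 30702 genes. With treatment as the only term, none of the 84 passed an adjusted p under 0.05 (edgeR quasi-likelihood test), and their lowest adjusted p was 0.585. Over all genes tested 0.0619% passed as higher in ATR and 0.00651% as lower, so a count of 0 among 84 is near this background. At an unadjusted p under 0.05 there were 2 of the 84 (2.38%), the transcripts of ranks 35 and 80, against 6.22% of all genes tested. DESeq2, limma-voom and edgeR's robust fit with treatment only also called 0 of the 84. Over all genes DESeq2 called 0.505% higher in ATR and 0.257% lower. The log2 fold changes of ATR over DMSO ranged from -0.18 to 0.39, and only 7 of the 84 were over 0.2 in size. Over the 1358 genes with a mean of 100 to 1000 CPM, log2 fold changes reached 2.92 in size, but a larger set can reach further. The median size was 0.088 for the 84 and 0.10 for those genes.

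The intervals show how large a change these libraries still allow. The 95% interval of the log2 fold change lay within 1 of 0, that is within a 2-fold change either way, for all 84 transcripts in the fit without the block. It lay within 0.5 of 0 for 67 of them without the block and for 83 with it. The widest reach without the block was 0.89, at rank 71. Standard errors had a median of 0.13 without the block and 0.074 with it.

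**Figure D3:**
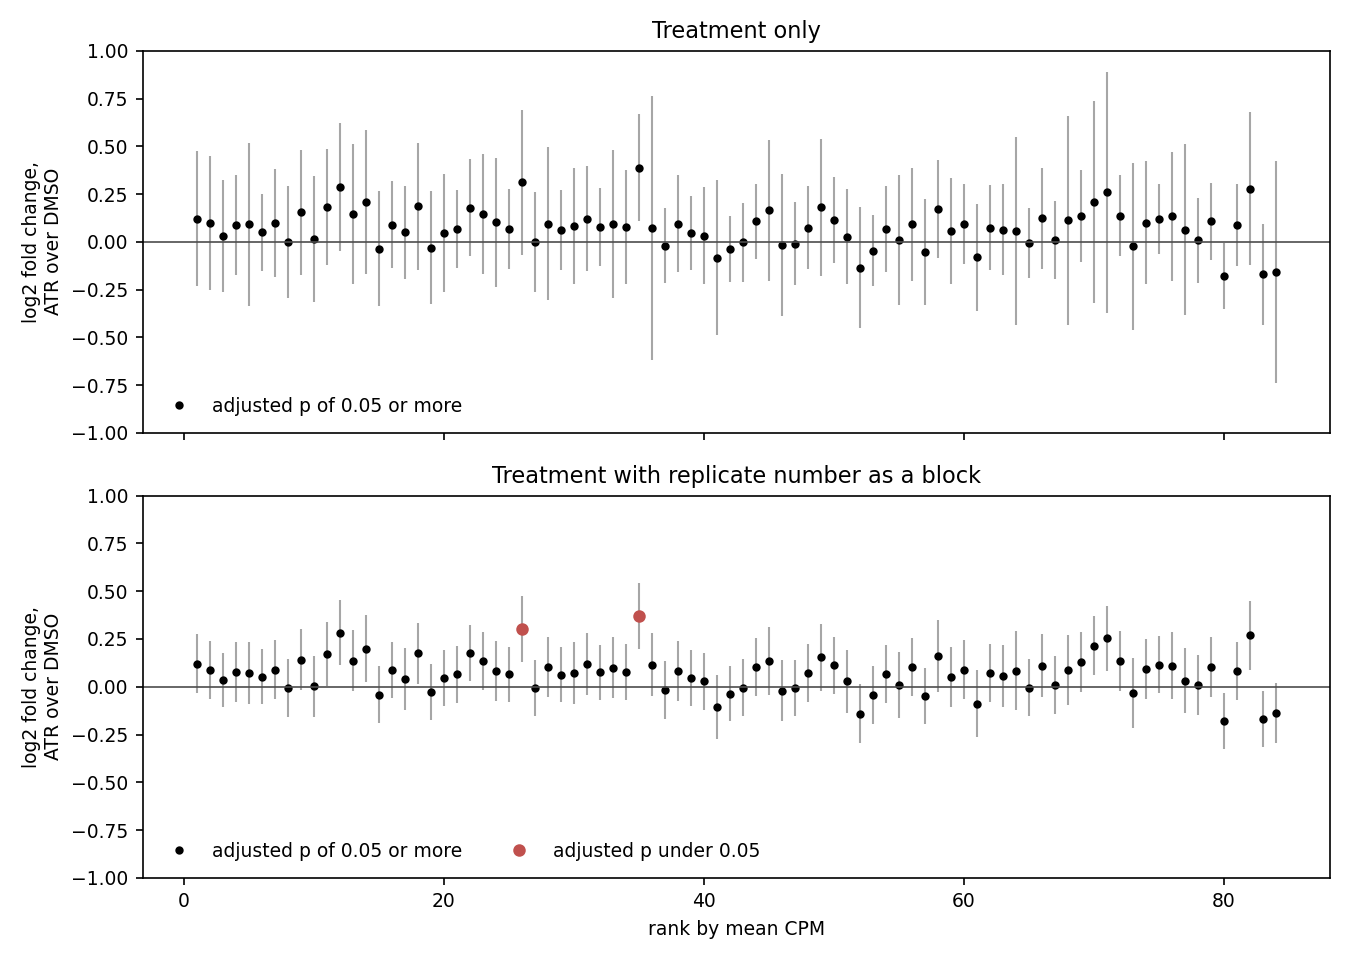
Log2 fold change of ATR over DMSO for the 84 transcripts by rank, with 95% intervals from edgeR's quasi-likelihood fits with treatment only (top) and blocked on replicate number (bottom). No transcript passes an adjusted p under 0.05 in the upper panel and 2 pass in the lower (red), at ranks 26 and 35.

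In the fit that blocked on replicate number, edgeR called 2 of the 84 transcripts higher in ATR and 0 lower, which is 2.38% and 0%. Over all genes tested the blocked fit called 1.56% higher and 1.56% lower. These genes include 10123 with a mean under 1 CPM, of which 0.079% were called in either direction. Of the 1358 genes of 100 to 1000 CPM 6.19% were called, against 2.38% of the 84. The share of the 84 was thus near that of all genes but below that of this abundant class, a difference that was not tested. With library totals as the scaling the blocked fit called 293 of all genes higher and 630 lower, in place of 480 and 479. At an unadjusted p under 0.05 the blocked fit gave 10 of the 84 as higher in ATR (11.9%) and 2 as lower (2.38%), against 6.83% and 7.75% of all genes tested. With the block, limma-voom called 3 of the 84 higher (3.57%) and 0 lower, against 1.79% and 1.61% of all genes. Blocked DESeq2 called 6 higher (7.14%) and 1 lower (1.19%), against 2.2% and 1.95% of all genes. Its share of higher calls was thus above that of all genes, nearly all of which are less abundant. Shares for genes of like abundance are not given here for limma-voom and DESeq2. In 1 simulated data set the blocked edgeR fit called more unchanged genes than its threshold allows on average, and the fit without the block called none. Differences between replicate numbers were built into these data, and the fit without the block takes them as noise. Changes larger than any fold change estimated for the 84 were also built into part of the 84. Whether this shifted the scaling of the unchanged genes was not tested. A single draw with this setting cannot show that the same holds in the real data, but the blocked adjusted p-values may be too small. The blocked edgeR count of 2 higher became 7 without replicate 4 and 0 without any 1 of replicates 1, 2 or 3. Without replicate 4 the same fit called 460 of all genes tested higher, a smaller share than among the 84. Without replicate 1, 2 or 3 it called 231, 248 and 174 of all genes higher, against 480 with all libraries, so calls fell over all genes too.

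The larger of the 2 blocked calls was gene30410, at rank 35. It had 3864, 3328, 2927 and 2472 CPM in ATR replicates 1 to 4, and 2476, 2403, 2426 and 2312 CPM in DMSO replicates 1 to 4. The ATR library was the higher in all 4 pairs, and the groups overlapped only in that ATR replicate 4 lay just under DMSO replicate 1. The ATR libraries were spread widely, with a mean of 3148 ± 592 CPM (SD, n = 4), against 2404 ± 68.7 CPM (SD, n = 4) in DMSO controls. The log2 fold change was 0.39 (standard error 0.13, adjusted p = 0.585 from edgeR without the block) and 0.37 with it (standard error 0.083, adjusted p = 0.0156 from edgeR). Without replicate 1, 2 or 3 the blocked edgeR fit gave adjusted p of 0.103, 0.0781 and 0.170, and without replicate 4 it gave 0.00377.

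The other was gene20009, at rank 26, with 5302, 4018, 3369 and 3376 CPM in ATR replicates 1 to 4, against 3811, 3228, 2444 and 3470 CPM in DMSO replicates 1 to 4. ATR replicates 1 to 3 were above their same-numbered controls, ATR replicate 4 was below its own, and the groups overlapped. Its log2 fold change was 0.31 (standard error 0.17, adjusted p = 0.911 from edgeR without the block) and 0.30 with the block (standard error 0.083, adjusted p = 0.0488 from edgeR), which is just past the threshold. Without replicate 1, 2 or 3 the blocked edgeR fit gave adjusted p of 0.230, 0.139 and 0.493, and without replicate 4 it gave 0.00373. With the block and all libraries, DESeq2 gave an adjusted p of 0.00689 and limma-voom 0.0193. Without the block they gave 0.725 and 0.810.

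No member passed as lower in edgeR in either fit with TMM factors. The most negative log2 fold changes were those of gene8320 and gene15781. At rank 80, gene8320 had 985, 966, 1039 and 1078 CPM in ATR replicates 1 to 4, and 1105, 1145, 1186 and 1170 CPM in DMSO replicates 1 to 4. All ATR values lay below all DMSO values, by little, and this was the only transcript of the 84 of which this was so. Its log2 fold change was -0.18 (standard error 0.079, adjusted p = 0.791 from edgeR without the block) and -0.18 with it (standard error 0.070, adjusted p = 0.205 from edgeR). It passed with the block in DESeq2 (adjusted p = 0.0480) and in edgeR with library totals as the scaling (adjusted p = 0.0342).

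At rank 83, gene15781 had 860, 905, 1143 and 936 CPM in ATR replicates 1 to 4, and 966, 1078, 1283 and 1000.2 CPM in DMSO replicates 1 to 4. The ATR library was the lower in all 4 pairs although the groups overlapped, and replicate 3 was the highest of each group, the reverse of the common order. Its log2 fold change was -0.17 (standard error 0.12, adjusted p = 0.967 from edgeR without the block) and -0.17 with it (standard error 0.070, adjusted p = 0.245 from edgeR). It passed in the blocked edgeR fit with library totals as the scaling, at an adjusted p of 0.0497.

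**Figure D4:**
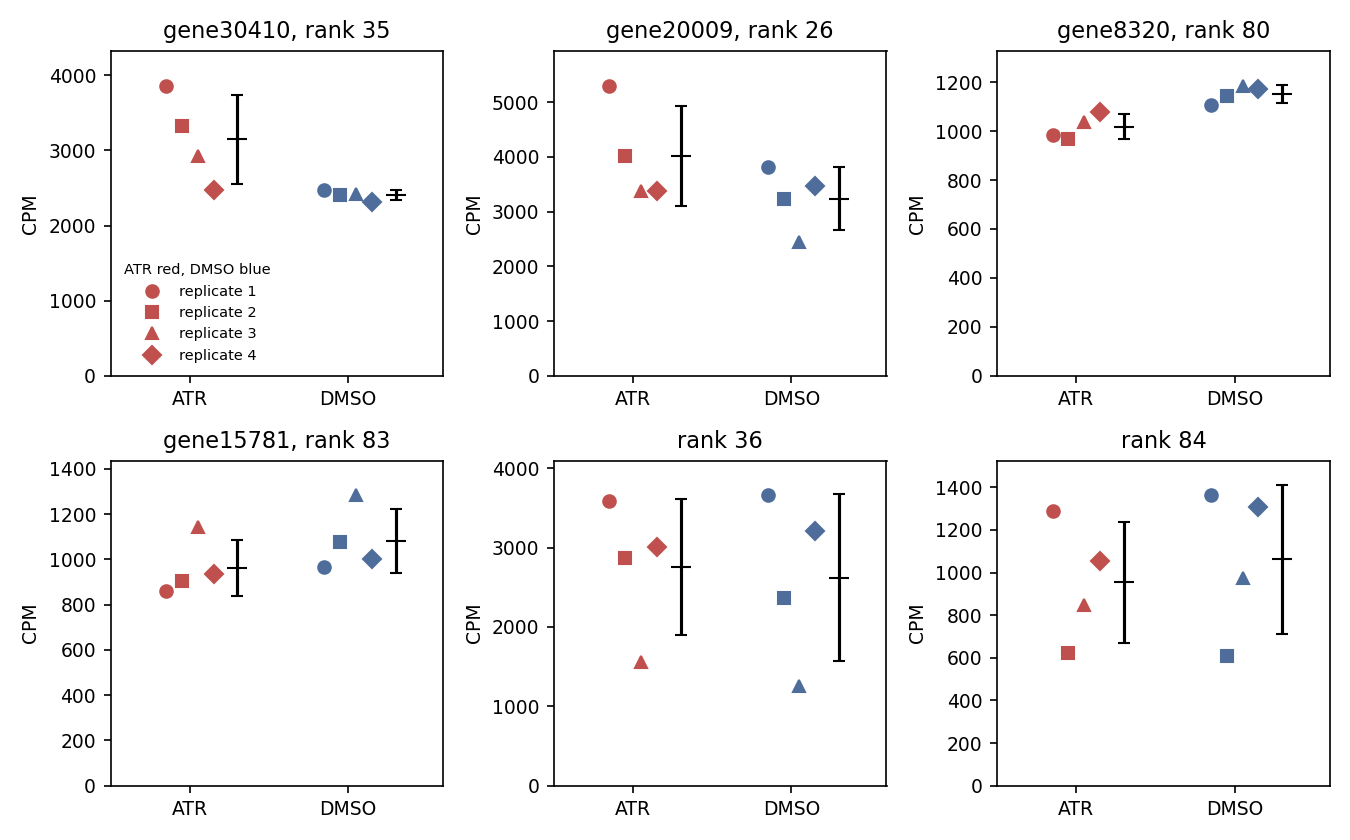
CPM in each library (symbols by replicate number, ATR red, DMSO blue), with mean and SD of each group (n = 4) in black, for the transcripts of ranks 35, 26, 80, 83, 36 and 84. At ranks 36 and 84 the symbols of the same number lie at similar heights in both groups, for example at 622 and 606 CPM for replicate 2 of rank 84.

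Few of the transcripts separated the groups or kept 1 direction over the pairs. All 4 ATR libraries lay above all 4 DMSO controls for 1 transcript, that of rank 75, which is 1.19% of the 84, against 2.24% of all genes tested. They lay below for 1 transcript, gene8320, also 1.19%, against 2.28% of all genes. At rank 75 the transcript had 1384, 1279, 1203 and 1204 CPM after ATR and 1188, 1169, 1115 and 1201 CPM in DMSO, so that the lowest ATR value and the highest DMSO value were almost equal. With library totals as the scaling no transcript of the 84 separated the groups. In all 4 same-numbered pairs the ATR library was the higher for 7 transcripts (8.33%), at ranks 1, 22, 29, 32, 35, 70 and 75, and the lower for 2 (2.38%), at ranks 80 and 83. Over all genes tested these shares were 10.5% and 11.1%. With library totals as the scaling, 17 of the 84 kept 1 direction in all pairs. The shares over all genes under this scaling are not given here, so its counts have no background beside them.

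The pairs disagreed in direction for the set as a whole. ATR was above DMSO for 55, 82, 62 and 15 of the 84 transcripts in pairs 1 to 4. The median log2 difference was 0.091, 0.17, 0.058 and -0.081 in pairs 1 to 4. Pair 4 thus ran opposite to the others for most transcripts. Over all genes tested ATR was above DMSO for 46.8%, 50.5%, 47.5% and 47.2% in the same pairs. With library totals as the scaling the counts for the 84 were 45, 48, 53 and 29, which is 53.6%, 57.1%, 63.1% and 34.5%. Over all genes the shares were then 38.9%, 38.1%, 43.5% and 51.0%. Under both scalings the share among the 84 was above that of all genes in pairs 1 to 3 and below it in pair 4. Without replicate 4, the ATR library was the higher in all 3 remaining pairs for 51 transcripts (60.7%) and the lower for 2 (2.38%), against 17.9% and 18.3% of all genes tested. Pair 4 was singled out after its direction had been seen, so this count carries no test. With replicate 1, 2 or 3 left out instead, the counts were 13, 7 and 6 higher and 2, 14 and 2 lower. In all, 17.9%, 25% and 9.52% of the 84 then kept 1 direction. Over all genes 16.1%, 14.7% and 14.7% were higher and 16.8%, 17.7% and 16.5% lower.

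**Figure D5:**
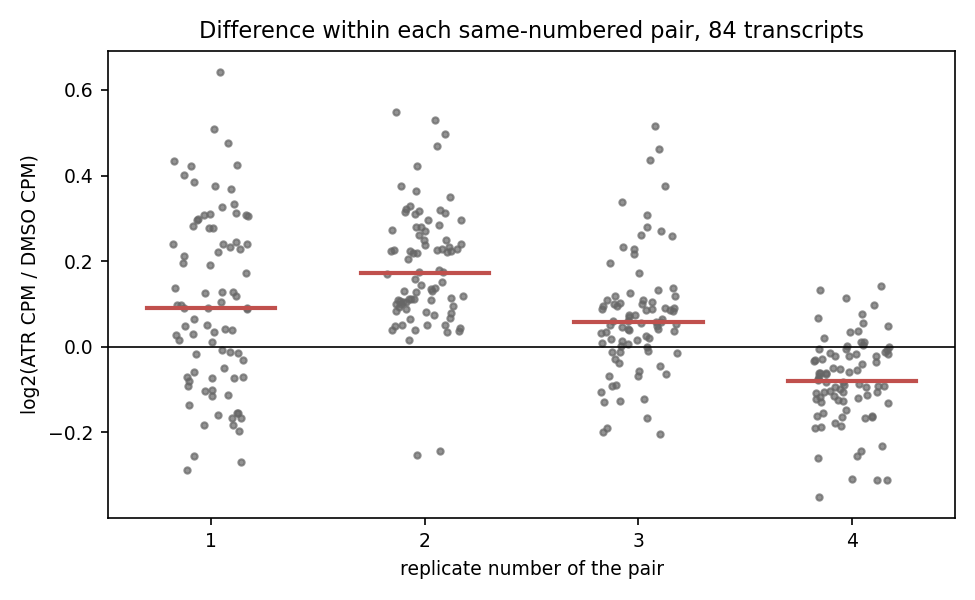
Each point is the log2 ratio of ATR CPM to DMSO CPM of 1 of the 84 transcripts within the pair of libraries that carry the same replicate number, spread sideways for sight. Red bars are medians, at 0.091, 0.17, 0.058 and -0.081 for pairs 1 to 4.

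Across the set, 65 of the 84 log2 fold changes were above 0 (77.4%), with a median of 0.077, while 47.9% of all genes tested were above 0, with a median of -0.013. The genes of 100 to 1000 CPM gave similar values, with 72.2% above 0 and a median of 0.072, so a positive sign was not particular to the highest transcripts. The number above 0 was 53 with library totals as the scaling and the median was then 0.022. It was 47 without ATR replicate 1, where the median was 0.0063, 49 without DMSO replicate 3 and 76 without DMSO replicate 1. In the blocked fit with both libraries of a replicate number left out, 56 to 70 were above 0, with medians from 0.046 to 0.125. The members share libraries and a common scaling factor and varied together, so the count above 0 carries no test.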

How the data were processed

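Counts per gene were deposited raw. The authors trimmed 10 bases from the 5′ end of the reads, aligned them with STAR to the *X. laevis* 9.2 genome, and took counts of uniquely mapped reads with htseq-count. The sources used here give no versions of these tools. Groups were read from the sample titles, all 8 columns were used, and no 2 libraries were identical. The members and tests were chosen with earlier results of these data known. A gene was tested where 4 or more libraries had a count of 1 or more, and CPM and TMM factors were computed with edgeR 4.0.16 in R 4.3.3. Members had a mean of 1000 CPM or more. Treatment was tested with edgeR's quasi-likelihood F test and Benjamini-Hochberg adjustment over all 30702 genes, and standard errors were obtained by dividing the size of the log2 fold change by the square root of F. Log2 CPM used a prior count of 2. Whether libraries are separate clutches is not stated, so p-values measure only the spread between these pools. Values per library are given for the 5 highest members and the 2 largest fold changes each way. They are also given for the 3 largest and 3 smallest SDs within groups and the 3 genes on each side of the threshold. Positive fold changes were taken among calls of the blocked fit, since none passed without it. No negative one was called in either fit, so the 2 most negative were taken uncalled. Identifiers were printed for the fold change rule only. Replicate numbers were taken to pair the samples because all 4 same-numbered correlations of deviations exceeded 0.1 over all genes (0.21 to 0.41). The tests were repeated in DESeq2 1.42.0, in voom (limma 3.58.1) and in a robust fit, and with the replicate block, other scalings, filters and thresholds, and left-out libraries. The edgeR fits were tested on 1 simulated data set with differences between replicate numbers built in. In it the blocked fit made more false calls than its threshold allows on average, but a single draw cannot show that this holds in general.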

Additional observations from a re-analysis of the deposited data

Results flagged for a closer look

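Sequencing depth was uneven in the ATR group. ATR replicate 2 had a total count of 104915882, and the totals of replicates 1, 3 and 4 were 83551369, 83727156 and 79887778. Of 40 groups of 4 values examined (totals, shares of counts and the CPM of transcripts given by library), this was the 1 whose extreme value passed Dixon's critical value of 0.829, which chance passes in about 5% of groups. The 84 transcripts held 31.5% of the counts in this library, within the range of the other ATR libraries. The totals of ATR replicates 1, 3 and 4 lay below every DMSO total, of which the lowest was 95497200. The mean total was 88020546 in the ATR group and 101722473 in DMSO controls, so depth differed with treatment.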

How the results depend on the processing

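Without the block, the count of 0 members called in either direction held under every alternative, except that 1 was called higher at a threshold of 500 CPM. With the replicate block, members called higher numbered 2 in edgeR, 2 with DESeq2 size factors, 3 with library totals, 2 with TMM over the other genes, 3 in limma-voom and 6 in DESeq2, and members called lower 0, 0, 2, 0, 0 and 1. At 500 CPM, which 219 genes passed, the block gave 4 higher (1.83%) and 5 lower (2.28%), and at 2000 CPM, which 45 passed, 2 higher (4.44%). With the block and a number left out, higher calls ranged from 0 to 7 and lower calls were 0.

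Over all genes, 19 were called higher and 2 lower. DESeq2 gave 155 and 79, and no filter on low counts 29 higher. The block gave 480 and 479, with DESeq2 size factors 488 and 457, with library totals 293 and 630, with TMM over the other genes 482 and 476, in limma-voom 550 and 495, and in DESeq2 674 and 599. Without any 1 library these were 3 to 17 and 0 to 1, and with the block and replicate 1, 2, 3 or 4 left out 231, 248, 174 and 460 higher and 169, 255, 135 and 403 lower.

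Members with 1 direction in all pairs numbered 9, 17 with library totals, 41 at 500 CPM (18.7%), 5 at 2000 CPM (11.1%) and 8 to 53 with a number left out, where 3 pairs remain. Members with no overlap numbered 2, 0 with library totals, 6 at 500 CPM (2.74%), 0 at 2000 CPM and 2 to 6 with libraries left out. For library totals the shares over all genes are not given here. Settings with libraries left out also have fewer pairs or libraries, and those at 500 and 2000 CPM another number of genes. The causes of the differences were not tested.

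Small fold changes of the highest ranks, none called, changed sign. The log2 fold change of rank 3 was -0.021 with library totals, with and without the block. With 1 library left out, log2 fold changes ranged from -0.0023 to 0.209 at rank 2, from -0.046 to 0.115 at rank 3, from -0.026 to 0.149 at rank 4 and from -0.075 to 0.225 at rank 5. With the block and without replicate 1 they were -0.0023 at rank 4 and -0.0045 at rank 5. The alternatives with a block and another scaling or limma-voom, and the blocked counts at 500 and 2000 CPM, were added after seeing the data. At this depth counting error is small for the members beside the spread between libraries.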

Other observations

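The 84 genes next in rank, with means from 606.8 to 999.7 CPM, held 6.47% of all counts. In the blocked edgeR fit 1 of them was called higher and 4 lower in ATR, 5.95% in all, beside 2.38% of the 84 highest. Of these next genes 22.6% kept 1 direction in all 4 pairs and 77.4% had a log2 fold change above 0. For the 1358 genes of 100 to 1000 CPM, the blocked fit called 52 higher and 32 lower, and 28.6% kept 1 direction in all pairs. The difference in these shares between ranks was not tested.

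Over the 8 libraries, log2 CPM of 2 members correlated with a median Pearson r of 0.63 over the 3486 possible pairs of members. In 27.4% of the pairs r was above 0.8 and in 12.4% it was below 0. All pairs share the same 8 libraries and scaling factors, so these values are a description.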
